A study of Equus caballus with 12 samples.

Results

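In 40 genes, the same horses stood high and the same horses stood low in every tissue measured, heart, lung and liver alike. These two-level genes were chosen by their measured levels. Reads per gene were divided by a size factor for each library, 5 was added, and a gene was kept if its median over the 12 libraries reached 50 and if 1 split of the 4 horses into a high and a low set held in each tissue, with the lowest high level at least 2 times the highest low level. The ratio of those levels, taken in the tissue where it was smallest, is called the gap. The rule found 40 of the 10649 genes with a median of at least 50 (0.376%), out of 31217 genes counted. The levels between horses therefore chose the genes, and they are given as a description with no test.

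The study measured messenger RNA in left ventricle (heart), right liver lobe and the caudal part of the right lung (lung) to compare the tissues. The animals were 4 healthy stallions of a cold-blooded (draught) type, aged 1 to 2 years and sampled at slaughter, with no treatment. Horses are numbered 1 to 4 here, in rising order of the animal numbers that the labels give. Each gave 1 library of each tissue, so each tissue had 4 animals as replicates. The inherited make-up of a horse, its state at slaughter and the handling of its samples cannot be told apart in these levels. In tissue pieces, more cells of a type and more RNA per cell cannot be told apart either.

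The files name genes by Ensembl identifier. Tables of the study pair 2 of the 40 identifiers with a symbol, IFIT3 and SMTNL1, and the other genes are given by identifier alone, with no chromosome position or sequence. IFIT3 is an interferon-induced gene. Interferons are secreted when a cell senses viral nucleic acid. They act through receptors on most cell types and induce a set of antiviral genes, and the IFIT proteins among them act against viral RNA. SMTNL1 encodes a smoothelin-like protein of muscle that takes part in the control of contraction.

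Reads in genes ran from 4345694 to 23474239 per library. The 8 cardiac muscle markers with an identifier (among them MYH7, TNNT2 and MYL2) summed to 645181 to 985277 scaled counts in the hearts and to 151 to 358 in the lungs and livers. The 8 hepatocyte markers (among them ALB, APOA1 and TTR) summed to 2126870 to 3035220 in the livers and to 453 to 1507 in the lungs. In the heart of horse 2 they summed to 65512, against 1160 to 5808 in the other 3 hearts. That was 3.00% of the sum in the liver of the same horse, against 0.0382%, 0.192% and 0.108% for horses 1, 3 and 4. No lung epithelial, red cell, leukocyte or acute stress marker was paired with an identifier, so the lungs were not checked against their defining markers.

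Of the 14 possible splits of the 4 horses, 6 held a gene. Horse 2 alone was high in 23 genes. Horse 1 alone was low in 10 genes. Horse 2 alone was low in 2 genes, horse 3 alone in 2 and horse 4 alone in 2, and the last gene was high in horses 2 and 4. Thus 39 of the 40 genes set 1 horse apart from the other 3, 38 had horse 2 in the high set, and 34 had horse 2 high and horse 1 low. Horse 2 was the highest of the 4 in all 3 tissues in 29 genes, and horse 1 was the lowest in all 3 in 25. The order of all 4 horses was the same in each tissue for 17 of the 40 genes (42.5%), 11 of which had the order 2, 3, 4, 1 from high to low. The rule fixes part of that order. Among the other 10609 genes with a median of at least 50, 90 (0.848%) had the same order in each tissue. Those genes did not have to meet the rule, so the 2 shares are not like for like.

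**Figure D1:**
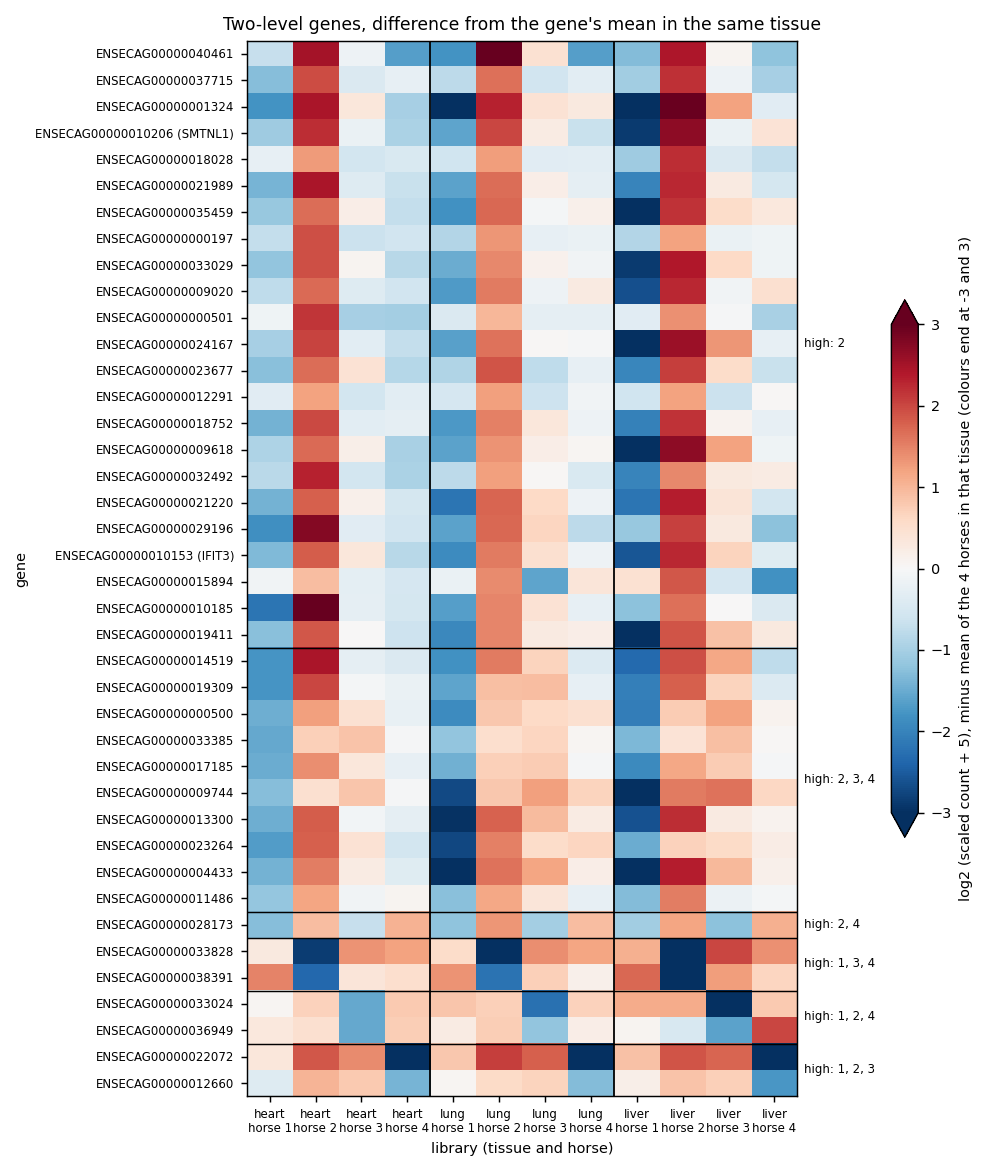
Each row is 1 of the 40 two-level genes and each column 1 library, and the colour is log2 of the level minus the mean of the 4 horses in that tissue, with red above and blue below and the scale ending at -3 and 3. The 23 genes in the top block are red in horse 2 in all 3 tissues, and the 10 genes in the block under it are blue in horse 1.

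The genes high in horse 2 alone took 0.444% of the gene reads in the heart of that horse, 1.39% in its lung and 0.492% in its liver. In the other horses they took 0.0467% to 0.0896% of the reads in heart, 0.175% to 0.459% in lung and 0.0282% to 0.123% in liver. The fold of the high over the low horses, from mean log2 levels, had a median over the 23 genes of 5.96 in heart, 4.19 in lung and 7.52 in liver. It was largest in liver for 15 of the 23 genes, in heart for 6 and in lung for 2. The 12 genes with the largest gaps are given in every library below, as scaled counts plus 5, in the order horse 1, 2, 3, 4.

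ENSECAG00000040461 had the largest gap among the genes high in horse 2, at 5.12. Its level was 1136, 10338, 1656 and 588 in heart, 189, 5163, 896 and 205 in lung, and 48.5, 645, 126 and 52.2 in liver. Horse 2 stood above the other 3 horses in each tissue, and within every horse the heart stood above the lung and the lung above the liver. The liver of horse 2 stood close to the heart of horse 4, so the levels differed by horse and by tissue.

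ENSECAG00000037715 was at 2284, 21455, 4100.4 and 4711 in heart, 5351, 28964, 6126 and 7416 in lung, and 2280.0, 21242, 4214 and 2345 in liver. ENSECAG00000001324 was at 513, 9669, 2238 and 893 in heart, 199.8, 8101, 2232 and 2027 in lung, and 191, 20804, 6143 and 2098 in liver. In the first of these the lowest library of horse 2 exceeded every library of the other horses in any tissue, so the horses did not overlap even with tissues mixed. In the second, horse 1 was lowest in each tissue, below horses 3 and 4 as well.

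SMTNL1 (ENSECAG00000010206) was at 72.8, 716, 133 and 79.6 in heart, 41.1, 494, 147 and 78.1 in lung, and 11.8, 553, 74.9 and 114 in liver. Horse 2 was at 553 or above in heart and liver and at 494 in lung, and no other library passed 147. Horse 1 was the lowest in all 3 tissues, and its heart and that of horse 4 lay close together.

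ENSECAG00000018028 was at 33.4, 96.1, 27.0 and 28.9 in heart, 142, 509, 168 and 170.0 in lung, and 26.7, 260.3, 41.2 and 34.1 in liver. Here horses 1, 3 and 4 lay closer to each other than to horse 2 within a tissue. ENSECAG00000021989 was at 238, 3410.0, 473 and 393 in heart, 546, 5353, 1923 and 1374 in lung, and 403, 7623, 1915 and 1113 in liver. ENSECAG00000035459 was at 36.8, 257, 92.8 and 49.0 in heart, 19.1, 224, 65.4 and 75.1 in lung, and 5 (no read), 188, 61.2 and 52.2 in liver. In both, horse 1 was lowest in each tissue and horses 3 and 4 lay between it and horse 2.

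The remaining genes high in horse 2 alone and among the 30 with the largest gaps were ENSECAG00000000197, ENSECAG00000033029, ENSECAG00000009020, ENSECAG00000000501, ENSECAG00000024167, ENSECAG00000023677, ENSECAG00000012291, ENSECAG00000018752, ENSECAG00000009618, ENSECAG00000032492 and ENSECAG00000021220. IFIT3 (ENSECAG00000010153) ranked 34 by gap and is described because it has a name, which was decided after its values were seen. It was at 709, 6282, 2245 and 1007 in heart, 633, 6821, 3263 and 2084 in lung, and 180.3, 5115, 1685 and 833 in liver. The order of the horses was 2, 3, 4, 1 in each tissue, with a fold of horse 2 over the geometric mean of the others of 5.37 in heart, 4.19 in lung and 8.09 in liver. IFIH1 (ENSECAG00000007881), a sensor of double-stranded RNA that interferon also induces, fell outside the rule with a gap of 1.88. It ranked 10 by gap among the genes outside, and it too was named after its values were seen. It was at 269, 2079, 422 and 243 in heart, 446, 4408, 1744 and 970.1 in lung, and 611, 3692, 1961 and 1229 in liver, so that horse 2 was again highest in each tissue.

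**Figure D2:**
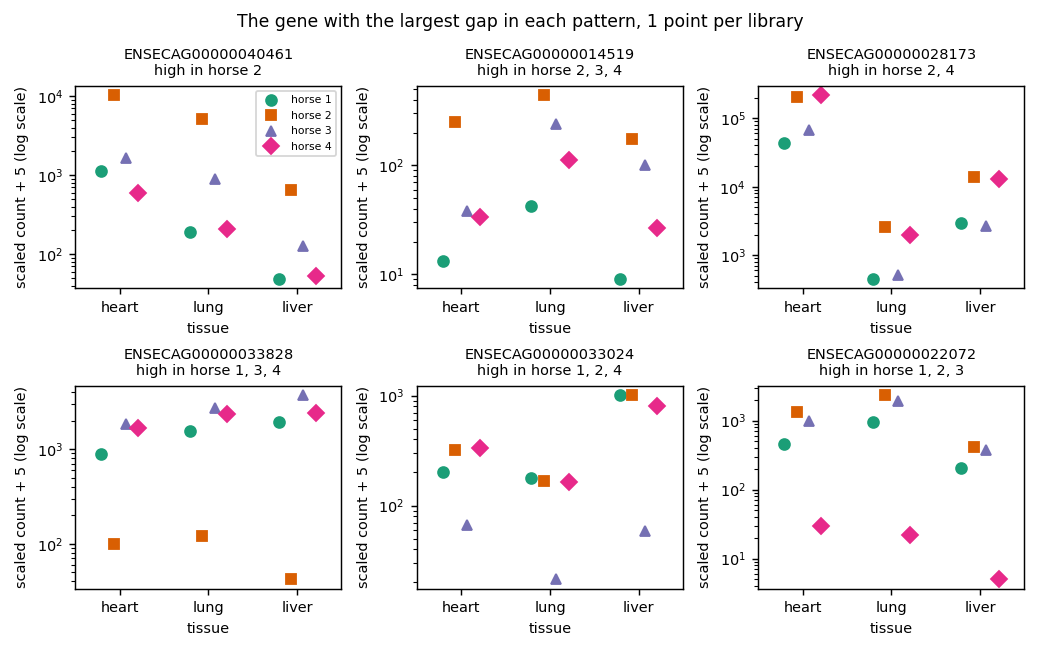
Each panel shows, for 1 pattern of high and low horses, the gene with the largest gap, with 1 point per library and the level (scaled count plus 5) on a log axis against the tissue. In ENSECAG00000040461 horse 2 stands above the other horses in each tissue, and in ENSECAG00000022072 horse 4 stands below them.

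The other 3 horses were not alike in the genes high in horse 2. With the level of horse 2 set to 100%, the median over the 23 genes was 11.5% for horse 1, 23.1% for horse 3 and 16.0% for horse 4 in heart. In lung the medians were 10.6%, 33.8% and 31.3%, and in liver they were 5.49%, 29.5% and 16.3%. The rule holds each of these below 50% but does not order them. Horse 1 was the lowest of the 4 horses in the heart for 16 of the 23 genes, in the lung for 21 and in the liver for 19, and it was the lowest in every tissue for 15. The order 3, 4, 1 held for 13, 14 and 16 of the 23 genes in heart, lung and liver. Over all 10649 genes the same medians were between 98.1% and 105%, which the size factors hold near 100%.

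**Figure D3:**
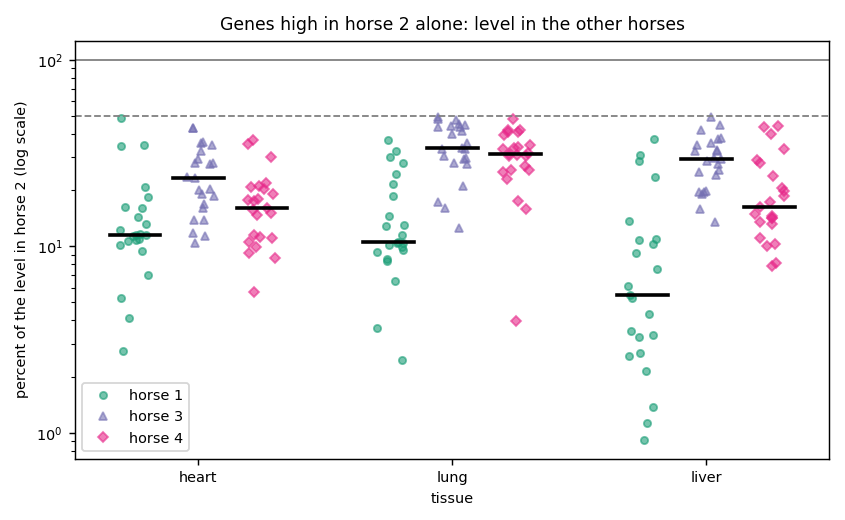
Each point is 1 of the 23 genes high in horse 2 alone, placed by tissue and horse, with its level as a percent of the level in horse 2 on a log axis, and the bars are medians. The median of horse 1 is the lowest in each tissue, at 11.5% (heart), 10.6% (lung) and 5.49% (liver), while the dashed line at 50% is the limit set by the rule.

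The heart library of horse 2 had a higher sum of hepatocyte markers than the other hearts, as given above. How those reads came to be in that library was not tested. The levels of the genes in its heart can be set beside its liver. For the 23 genes high in horse 2, the scaled count in its heart was 4.30% to 1614% of that in its liver, with a median of 123%. The lowest values were 4.30% for ENSECAG00000000501 and 4.71% for ENSECAG00000012291, against 3.00% for the hepatocyte marker sum, and the part of hepatocyte RNA in the heart levels of these 2 genes was not tested. The other 21 genes stood at 35.7% or above.

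In 10 genes horse 1 was low and the other 3 horses were high. ENSECAG00000014519, ENSECAG00000019309, ENSECAG00000000500, ENSECAG00000033385, ENSECAG00000017185, ENSECAG00000009744 and ENSECAG00000013300 were those among the 30 with the largest gaps. The fold of the high over the low horse had a median of 3.94 in heart, 5.51 in lung and 6.67 in liver. It was largest in liver for 7 of the 10 genes. The largest fold in liver was 34.0, in ENSECAG00000009744, where the liver of horse 1 was at 103 and the livers of horses 2, 3 and 4 were at 4243, 4481 and 2243. In its heart the fold was 3.24, from 2023 in horse 1 and 6845, 8639 and 4754 in the others. The low level of horse 1 in this gene was thus deepest in liver and shallowest in heart. Among the 3 high horses, horse 4 was the highest in no gene and no tissue, and the order 2, 3, 4 held in the heart for 7 of the 10 genes, in the lung for 5 and in the liver for 6.

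The largest gap of all, 15.6, was that of ENSECAG00000022072, in which horse 4 was low. It was at 464, 1343, 993 and 29.9 in heart, 971, 2337, 1933 and 21.7 in lung, and 209, 420.4, 378 and 5 in liver. Horse 4 had 26 reads of this gene in heart, 49 in lung and 0 in liver, where 3 reads would be a scaled count of 10.9. The lowest of the other livers was at least 18.7-fold higher than that floor, which covers counting error only. The second gene low in horse 4, ENSECAG00000012660, had the smallest gap of the 40, at 2.02.

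In ENSECAG00000033828 and ENSECAG00000038391 horse 2 was low. The first was at 880.2, 101, 1835 and 1661 in heart, 1536, 120.35, 2732 and 2352 in lung, and 1939, 42.2, 3703 and 2377 in liver. The second was at 1206, 84.2, 547 and 607 in heart, 1788, 151, 1144 and 775 in lung, and 835, 20.2, 601 and 394 in liver. The high horses had different orders in the 2 genes, with horse 3 highest in the first and horse 1 highest in the second in each tissue. In both, the fold was largest in liver, at 61.1 and 28.8.

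ENSECAG00000033024 was low in horse 3, at 202, 317, 67.2 and 336 in heart, 179, 166, 21.3 and 164 in lung, and 1009, 1005, 58.7 and 808 in liver. The other 3 horses lay close together in lung and liver. The liver of horse 3 was below the heart of each other horse, although the liver was the higher tissue in those horses.

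ENSECAG00000028173 was the 1 gene that set 2 horses against 2. It was at 43874.5, 203567, 66527 and 219192 in heart, 448, 2563, 505 and 1943 in lung, and 2987, 13971, 2625 and 12939 in liver. Horses 2 and 4 stood above horses 1 and 3 by 3.91-fold in heart, 4.69-fold in lung and 4.80-fold in liver. The hearts of both pairs stood far above their lungs and livers, so the high and low pairs overlapped when tissues were mixed.

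The threshold cut a continuous series of gaps. The 5 genes just inside it had gaps of 2.02 to 2.05 and the 5 just outside had gaps of 1.97 to 1.999. The nearest outside was MT-ND4 (ENSECAG00000027675), a mitochondrially encoded subunit of respiratory complex I, in which horse 2 was low. It was at 323538, 75757, 233802 and 257184 in heart, 5423, 902, 1857 and 1803 in lung, and 31497.5, 5106, 11781 and 11220.3 in liver. The others just outside were ENSECAG00000011777, ENSECAG00000004349 and ENSECAG00000008809, high in horse 2, and ENSECAG00000034516, low in horse 1.

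The share of the variation that lay between tissues and between horses was computed for each gene from its 12 log2 levels. In the 40 genes the tissue took a median of 26.2% of the sum of squares, the horse 67.1% and the remainder 4.84%. In the other 10609 genes the medians were 82.1%, 6.33% and 9.69%. The large share of the horse follows from the rule, and the same split in each tissue also favours a small remainder. The share of the tissue ran from 1.13% in ENSECAG00000033828, where the horse took 94.9%, to 87.1% in ENSECAG00000012291, where the horse took 12.7%. In ENSECAG00000028173 the tissue took 86.5%, the horse 13.3%, and 0.258% remained.

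**Figure D4:**
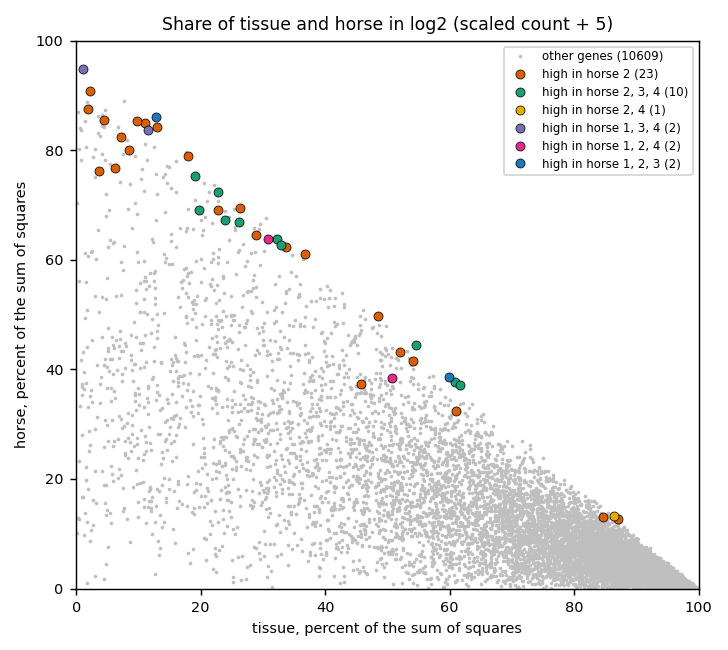
Each point is 1 gene, with the share of the sum of squares of its 12 log2 levels that lies between tissues on the horizontal axis and between horses on the vertical axis, both in percent, and coloured points are the 40 two-level genes by pattern. The 40 genes lie mostly near the falling diagonal, where tissue and horse together leave little over, which the rule favours. Along it the share of the horse runs from 12.7% in ENSECAG00000012291 to 94.9% in ENSECAG00000033828. Their median remainder is 4.84% against 9.69% for the other genes, and the largest among them is 20.2%, in ENSECAG00000009618.

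The rule set no contrast between tissues, and these were tested with edgeR over 15436 genes. The tests use the same 12 levels as the rule, which needs the same split in each tissue and, through the added 5, reads in each tissue, so the choice of genes bears on their errors and on the fold changes they can show. A gene was called when its adjusted p was below 0.05 and its log2 fold change was at least 1 in size. LvsH, LvsLR and HvsLR stand for lung over heart, lung over liver and heart over liver. Without a term for the horse, 7 of the 40 genes (17.5%) were called in LvsH, against 45.2% of all genes tested. The count was 9 (22.5%) in LvsLR, against 50.4%, and 6 (15.0%) in HvsLR, against 48.4%. The choice of genes favours low counts, since the spread between horses is the error of this fit. The median size of the log2 fold change also differed from that of all genes tested. It was 0.625 against 0.952 in LvsH, 1.27 against 1.12 in LvsLR and 0.988 against 1.12 in HvsLR. The parts of error and fold change in the low counts were not tested. The count for LvsH was 14 without the heart library of horse 2, 3 without the heart of horse 1, the heart of horse 4 or the lung of horse 2, and 4 without the lung of horse 3. The count for LvsLR was 14 without the liver of horse 2. Of the 22 calls, 12 held when each library was left out in turn.

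Each horse gave all 3 tissues, and with the horse as a block the fit compares tissues within horses. Then 19 of the 40 genes (47.5%) were called in LvsH, against 45.3% of all genes, 26 (65.0%) in LvsLR, against 51.1%, and 19 (47.5%) in HvsLR, against 48.8%. No call of the fit without the block was lost. The standard error was smaller with the block for all 40 genes in each contrast, and the median ratio of the errors was 2.86 in LvsH, 2.92 in LvsLR and 2.86 in HvsLR. Over all genes the median error in LvsH moved from 0.290 to 0.269, and over the 40 genes from 0.964 to 0.325. The smaller errors also follow from the rule, which chose genes whose horses differed in the same way in each tissue.

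In LvsH, 15 genes were higher in lung and 4 in heart, beside 25.1% and 20.2% of all genes. In LvsLR, 21 were higher in lung and 5 in liver, beside 31.7% and 19.4%. In HvsLR, 11 were higher in heart and 8 in liver, beside 26.7% and 22.1%. The called direction was shown by all 4 horses in 19 of 19 genes in LvsH, 25 of 26 in LvsLR and 18 of 19 in HvsLR. The blocked fit calls genes whose tissues differ alike within the same horses, so these counts largely follow from the call. No such counts were made over all genes called. In all, 30 genes were called in at least 1 contrast, beside 71.3% of all genes, 7 in each, beside 15.7%, and 10 in none, beside 28.7%. The shares called in at least 1 contrast, in each and in none lay near those of all genes. The share of the 40 genes called higher in lung lay above that of all genes in LvsH and LvsLR, which was not tested. Without the heart library of horse 2, the blocked counts were 19, 26 and 21.

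ENSECAG00000028173 had the largest fold change among the 40, with log2 values of -6.89 ± 0.30 (SE) in LvsH, -2.71 ± 0.25 in LvsLR and 4.18 ± 0.26 in HvsLR in the blocked fit. It was called in both fits in each contrast, and edgeR's adjusted p in LvsH was 2.03e-08 with the block and 6.06e-05 without. With library totals as scaling and no block, its call in LvsLR was lost (log2 fold change -1.23, edgeR adjusted p = 0.154). The log2 ratio of lung over heart within a horse lay between -7.04 and -6.31 in the 4 horses, so the tissues differed by a similar factor in the high and the low pair.

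ENSECAG00000040461 was also higher in heart, with a log2 fold change of 4.16 ± 0.31 in HvsLR (edgeR adjusted p = 6.34e-07 with the block, 0.0272 without). Without the block its call in HvsLR was lost when the heart of horse 2 was left out (log2 fold change 2.37, adjusted p = 0.104 with edgeR). It was also lost without the liver of horse 1, 3 or 4 (edgeR adjusted p = 0.0674, 0.0736 and 0.0707) and with no filter on low counts (0.0634). ENSECAG00000000501 was higher in liver, with a log2 fold change of -5.19 ± 0.35 in HvsLR (adjusted p = 3.6e-07 with the block, 0.000334 without, by edgeR). ENSECAG00000012291 was low in heart, where it had 0 to 8 reads per library, with 5.32 ± 0.40 in LvsH and -5.26 ± 0.40 in HvsLR in the blocked fit and calls in both fits. Without the heart of horse 2, which held the 8 reads, these became 6.56 and -6.51, and folds against so few reads depend on the constant that the fit adds. For ENSECAG00000000501 HvsLR became -5.67. The heart levels of these last 2 genes are those set beside the hepatocyte signal above.

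ENSECAG00000022072, low in horse 4, was called in no contrast without the block and in LvsLR and HvsLR with it. Its log2 fold change was 2.16 ± 0.28 in LvsLR (edgeR adjusted p = 4.24e-05, against 0.15 without the block) and 1.66 ± 0.28 in HvsLR (edgeR adjusted p = 0.000349, against 0.334). Lung exceeded liver by 2.22, 2.47, 2.35 and 2.12 on the log2 scale in horses 1, 2, 3 and 4. Lung over heart was -0.46 in horse 4 and 0.80 to 1.06 in the others, so horse 4 differed from them in that ratio, and its liver value rests on the constant added.

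IFIT3 and SMTNL1 were called in no contrast in either fit. For IFIT3 the blocked log2 fold change was 0.18 ± 0.29 in LvsH, 0.96 ± 0.29 in LvsLR and 0.78 ± 0.29 in HvsLR, and edgeR's adjusted p was 0.603, 0.0127 and 0.0372. The last 2 passed the p threshold and missed the fold threshold. For SMTNL1 the values were -0.54 ± 0.40, 0.23 ± 0.41 and 0.77 ± 0.43, with edgeR adjusted p of 0.261, 0.632 and 0.137. In both genes the standard error of these tissue differences was 0.29 to 0.43 on the log2 scale, which does not measure the spread between horses. Horse 2 stood at least 2.09-fold (IFIT3) and 3.37-fold (SMTNL1) above every other horse in each tissue, and these are the gaps by which the genes were chosen.

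Of the 23 genes high in horse 2, the blocked fit called 10 in LvsH, 11 in LvsLR and 7 in HvsLR, where 45.3%, 51.1% and 48.8% of all genes were called. Of the 10 genes low in horse 1 it called 5, 9 and 7 against the same shares. All 5 in LvsH were higher in lung, among them ENSECAG00000017185 at 3.05 ± 0.22 and ENSECAG00000013300 at 2.54 ± 0.37 on the log2 scale. Of the 9 in LvsLR, 7 were higher in lung, and ENSECAG00000000500 was among those higher in liver, at -1.66 ± 0.28. Over all genes tested, 25.1% were called higher in lung in LvsH and 31.7% in LvsLR.

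**Figure D5:**
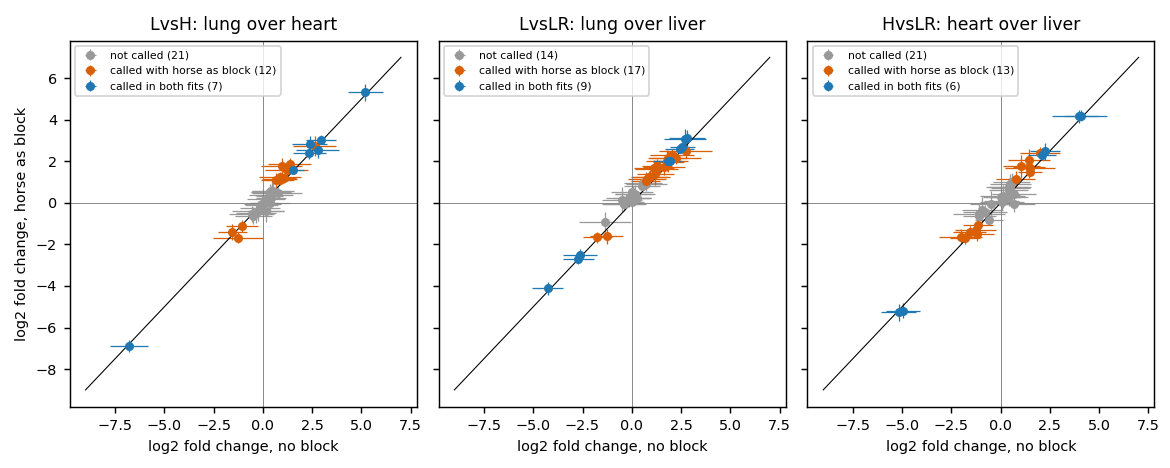
Each point is 1 of the 40 genes in 1 contrast of tissues, with the log2 fold change without the horse on the horizontal axis and with the horse as a block on the vertical axis, and bars are standard errors. The points lie near the diagonal and the vertical bars are shorter than the horizontal ones, and 7, 9 and 6 genes were called in both fits in LvsH, LvsLR and HvsLR.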

How the data were processed

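Libraries of 4 horses and 3 tissues were made with a kit that keeps no strand (TruSeq RNA v2) and sequenced as paired reads of 150 bases. The deposited values are counts of reads per Ensembl gene, made by the authors with TopHat2 and HTSeq on EquCab3.0. They are not normalized. Rows that name no gene held 16.8% to 30.2% (no feature), 1.78% to 7.29% (ambiguous) and 5.17% to 10.8% (not unique) of all reads counted and were left out. Antisense partners and members of multigene families cannot be told apart in such counts.

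Size factors were medians of ratios over 8968 genes with at least 10 reads in each library. Tissues were compared with edgeR 4.0.16 in R 4.3.3 (TMM, filterByExpr, robust quasi-likelihood, Benjamini-Hochberg over 15436 genes), which all 40 genes passed into, and DESeq2 1.42.0 served as an alternative. Standard errors given for edgeR were derived from its F test. Each is the size of the log2 fold change over the root of F, which is an approximation. Depth sets the precision, and the 40 genes had 1146 to 471875 reads each over the 12 libraries. Replicates are separate animals. The horse pairs the tissues by label. In the 12 same-horse pairs, deviations from the tissue means correlated at 0.065 to 0.508 over 10609 genes, and 10 pairs were over 0.1. Scripts were tested on simulated data.

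The members, gene lists and tests were chosen with earlier results of these data known. Named are the 30 genes with the largest gap, in full the first 12, and the 5 nearest outside; others were named after their values were seen. Symbols come from tables of the study, and the RefSeq table matched 0 identifiers. One gene that met the rule is not reported here. Alternatives were other scalings, added constants, gap and median minimums, no filter, DESeq2, the block and leaving out each library.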

Additional observations from a re-analysis of the deposited data

Results flagged for a closer look

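For the 12 genes given in every library, the log2 ratio of 2 tissues within each horse was examined in 36 groups of 4 horses, and in 3 of them 1 horse lay far from the other 3 by Dixon's test. Chance alone marks about 1 in 20 such groups. In ENSECAG00000038391, lung over liver was 2.90 in horse 2 and 0.93 to 1.10 in the others. In ENSECAG00000037715, heart over liver was 1.01 in horse 4 and -0.04 to 0.01 in the others. In ENSECAG00000001324, heart over liver was 1.42 in horse 1 and -1.46 to -1.11 in the others. No cause was tested.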

How the results depend on the processing

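The number of two-level genes was 40, and it was 39 with TMM (38 of the 40 kept), 41 with library totals (34 kept), 39 with size factors within each tissue (36 kept), 44 with 1 added (40 kept) and 32 with 20 added (31 kept). A gap of at least 1.5 gave 115 genes and a gap of at least 3 gave 9. Leaving out 1 library gave 44 to 99 genes, since fewer libraries must meet the rule; it was 99 without the heart of horse 1, 67 without the lung of horse 2, 64 without the heart of horse 4, 62 without the lung of horse 3 and 61 without the liver of horse 2, and 36 to 40 of the 40 remained, which the looser rule favours. The replicate block raised the called genes from 7 to 19 in LvsH, from 9 to 26 in LvsLR and from 6 to 19 in HvsLR. DESeq2 with the block gave 19, 26 and 19, and the block without the heart of horse 2, chosen after seeing the data, gave 19, 26 and 21. DESeq2 without the block gave 8, 12 and 10, and for 2 genes it gave no adjusted p. Library totals gave 20, 24 and 6; over all genes tested they took the median log2 fold change from 0.03 to 1.85 in LvsH and from 0.26 to 1.81 in LvsLR, and the share of calls higher in lung from 54.2% to 92.8% and from 61.6% to 90.4%. No filter gave 3, 7 and 4. Leaving out 1 library gave 3 to 14, 6 to 14 and 4 to 9.

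Of 557 alternative values for 31 pairs of a gene and a contrast, 475 kept their direction and call, 60 lost the call, 7 gained it and 15 changed sign. The sign changes were all in SMTNL1 and IFIT3, which were not called. For SMTNL1, LvsH was 1.17 with library totals and LvsLR was 1.33 with library totals, 0.23 with the block, 0.24 with DESeq2 and the block and 0.25 with the block without the heart of horse 2. Without 1 library it ran from -1.70 to 0.92 in LvsH, from -1.29 to 1.58 in LvsLR and from -1.09 to 2.15 in HvsLR. For IFIT3 the same ranges were -0.52 to 1.13, -0.11 to 1.71 and -0.56 to 1.56. The causes were not tested. Depth was lowest in the liver of horse 4. In 5 two-level genes a library had 0 reads, and those levels rest on the constant added. Those libraries were the livers of horses 1 and 4 and the heart of horse 3.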

Other observations

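A further 75 genes had a gap between 1.5 and 2. Horse 2 alone was high in 29 of them and horse 1 alone was low in 22, and 7 were high in horses 2 and 3, a pattern that held no gene at a gap of 2. Horse 1 alone was high in 3 and horse 3 alone in 3. Below a median of 50, 16 more genes met the gap of 2. In the 10 genes low in horse 1, horse 1 stood at a median of 13.3% of horse 2 in heart, 12.5% in lung and 9.51% in liver, while horse 3 stood at 40.9%, 79.9% and 67.1% and horse 4 at 29.5%, 49.9% and 38.1%. B2M, the light chain of major histocompatibility class I, was at 12588 scaled counts in the heart of horse 1 against 21703 to 25633 in the other hearts, and at 30630 in its liver against 46576 to 56031 in the other livers. In lung it was at 35574 in horse 1 and at 32908 to 39344 in the others.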
